A study of Ictalurus punctatus and Ictalurus punctatus x Ictalurus furcatus with 18 samples.

Results

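The transcripts described here are 200 liver transcripts of catfish whose level was lower in every library from a high cycling temperature than in any library from a low one. They were chosen by their level in CPM (the reads of a transcript scaled to a library of 1000000 reads on transcripts). A transcript had to average at least 2 CPM over the low-temperature libraries, and its highest high-temperature level had to lie below its lowest low-temperature level. The 200 with the largest ratio of the low to the high mean were taken. Of 144746 transcripts in the deposited table, 34137 averaged at least 2 CPM, 316 of these (0.926%) also passed the separation, and 116 of those fell outside the 200. The comparison of the temperatures chose the members, so the size of their fall is given as a description, with no test.

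Fingerling catfish had lived for 6 weeks in water that cycled daily between 32 and 36 °C in the high regime (libraries H1 to H9) or between 27 and 31 °C in the low regime (L1 to L9). Each regime held 3 libraries of hybrid catfish labelled with the Delta Select strain (H2, H6 and H8 against L1, L4 and L7), 3 of Red River channel catfish (H1, H4 and H7 against L2, L6 and L9) and 3 of Delta Select channel catfish (H3, H5 and H9 against L3, L5 and L8). Farmed hybrid catfish are crosses of channel with blue catfish. A library is 1 pool of liver RNA from 3 fish of a tank, so n counts tanks, and the values do not show how single fish varied. Depth ran between 36242058 and 76146359 reads on transcripts per library, and the fewest reads of any member were 184 over the high-temperature libraries and 760 over the low-temperature libraries.

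The libraries L3 and L5 stand apart from L8, the other library of low-temperature Delta Select fish. This was seen over 49 transcripts with at least 2 CPM in every hybrid and at most 0.1 CPM in every Red River library. Their median level was 81.3% of the hybrid mean in L3 and 32.8% in L5, against 0% in L8, and no high-temperature library of Delta Select fish exceeded 0.207%. In these transcripts L3 and L5 are thus unlike the other libraries labelled Delta Select channel catfish, and whether their labels are right was not determined. The rule keeps these 49 transcripts out of the members, so they say nothing of the members' own levels in L3 and L5. The main values for low-temperature Delta Select fish include both libraries. Values from L8 alone, or from fits without L3 and L5, stand beside many of the main ones, but not beside all. The counts of members in the tests of type by temperature are given with both libraries included, so they may depend on them.

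The liver of a fish makes most plasma proteins and handles sugars, fats, bile and foreign compounds. Fish take on the temperature of the water, so a lasting warm regime changes the rate at which the organ works, and heat is known to raise the chaperones called heat-shock proteins. The deposited identifiers hold a k-mer size of the assembly and a number, and 0 of them matched the RefSeq gene table of channel catfish (Coco_2.0, 32344 genes). The genes, functions and sequences of the members were therefore not determined here, and the liver label could not be checked against marker genes. The libraries are bulk RNA, so fewer cells that hold a transcript and less of it per cell cannot be told apart.

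The falls were moderate and occurred at all levels. The ratio of the low to the high mean ran between 1.53 and 5.26, with a median of 1.84 and quartiles of 1.66 and 2.18. It was above 2 for 69 members and above 3 for 7. All members still had reads in every high-temperature library, and the mean at the high temperature was under 0.5 CPM for 1 member and under 1 CPM for 4. The members' mean level ran between 0.41 and 1199 CPM at the high temperature (median 6.05), against 2.00 to 2075 CPM at the low temperature (median 10.5). Of the members, 55 averaged 2 to 5 CPM, 40 averaged 5 to 10 CPM, 83 averaged 10 to 100 CPM, and 22 averaged more at the low temperature. Median ratios in these bands were 1.91, 1.76, 1.85 and 1.71, and the Spearman correlation of ratio with level was -0.037 across the 200 members, which share their libraries. The same rule turned round, for transcripts raised in every high-temperature library, was met by 1167 transcripts, and the first 200 of those had a median ratio of 8.23 and a highest ratio of 603.

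**Figure D1:**
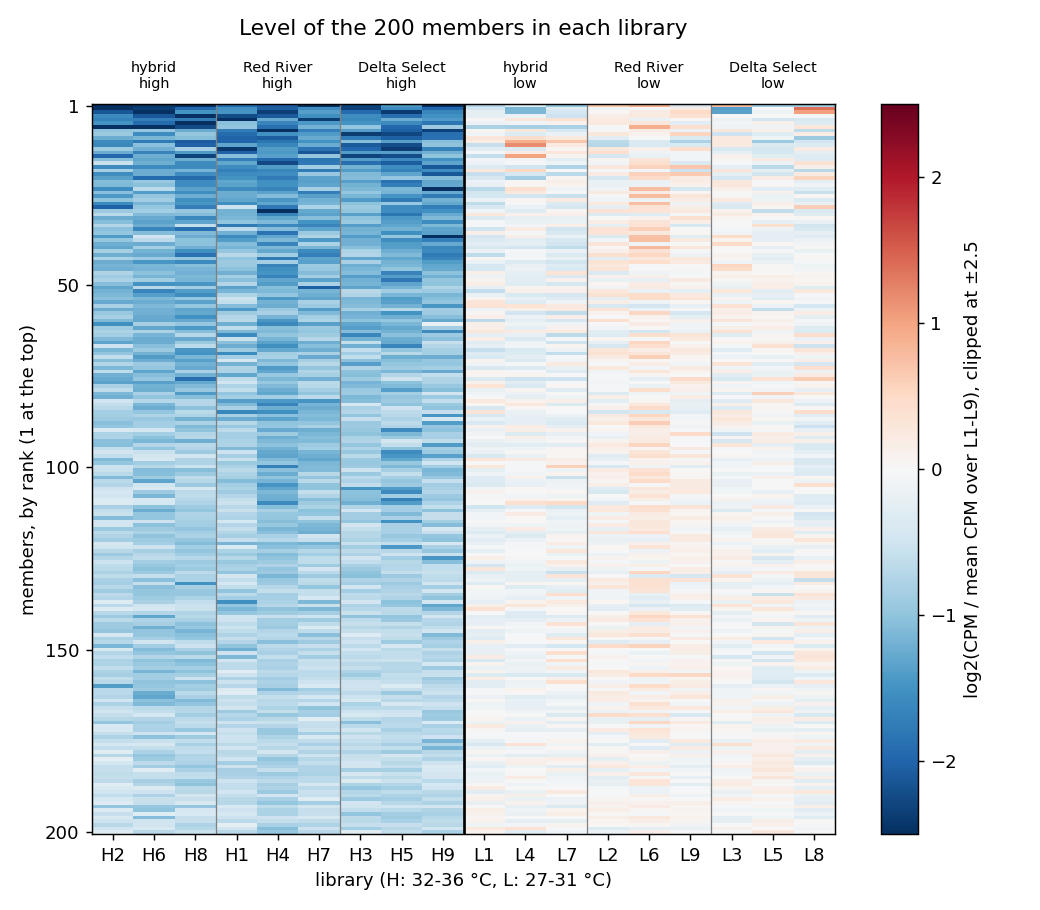
Level of each member (lines of the map, by rank) in each of the 18 libraries (columns, by regime and type), as log2 of its CPM over its mean CPM in L1 to L9, clipped in the colour scale. All high-temperature libraries are below the low-temperature mean in each line, which the choice of members fixes, and the falls grade down to a ratio of 1.53 at rank 200.

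The member of highest rank, k54:128495, was a rare transcript. It had 0.196, 0.401 and 0.795 CPM as the lowest, median and highest of the 9 high-temperature libraries, against 1.1, 1.62 and 4.0 CPM in the 9 low-temperature libraries. The low-temperature libraries were uneven, with 3.45 CPM in L2, 3.74 CPM in L3 and 4.0 CPM in L6 and at most 1.8 CPM in the other 6, so a few tanks carry its first rank. Its low-temperature mean lies only just above the minimum of 2 CPM, so these tanks, L3 among them, carry its membership too. Its means were 0.41 ± 0.193 CPM at the high and 2.16 ± 1.21 CPM at the low temperature (SD, n = 9 each), from 184 and 812 reads, a ratio of 5.26. The next member, k78:192139, had 0.53, 0.847 and 1.16 CPM (lowest, median and highest) at the high temperature, against 1.29, 3.15 and 8.70 CPM at the low temperature. Its highest value, in L8, lay far above the next library (3.88 CPM in L9), and its ratio of 3.88 became 3.12 without L8.

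The members with the highest low-temperature CPM had ratios between the quartiles of all members (1.66 and 2.18). The level of k86:783505 was 1043, 1200.2 and 1322 CPM (lowest, median and highest) at the high temperature, against 1721, 2081 and 2515 CPM at the low temperature. Its lowest low-temperature library, L5, lay clearly above its highest high-temperature library, H3, at 1.30 times the level. The means were 1199 ± 98.7 CPM at the high and 2075 ± 254 CPM at the low temperature (SD, n = 9 each), a ratio of 1.73. The level of k94:1357458 was 741, 901 and 949.9 CPM at the high temperature, against 989.6, 1384 and 1959 CPM at the low temperature. Here the gap was thin, since L5 stood at only 1.04 times the level of H7, while the other 8 low-temperature libraries were at 1278 CPM or more. The means were 856 ± 85.0 CPM at the high and 1455 ± 291 CPM at the low temperature (SD, n = 9 each), a ratio of 1.70. Transcript lengths were not used here, so CPM values of different transcripts do not rank them by number of molecules.

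At the edge of the choice, k70:1618706 (rank 200) averaged 6.25 ± 0.932 CPM at the high and 9.54 ± 1.14 CPM at the low temperature (SD, n = 9 each), a ratio of 1.53. Just outside it, k82:542987 (the next rank) averaged 9.96 ± 1.54 CPM at the high and 15.2 ± 1.82 CPM at the low temperature (SD, n = 9 each), a ratio of 1.52. The last member inside and the first outside thus differ little, and rank 200 marks no break in the data.

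Summed over members, the transcripts took up 0.682% ± 0.0489 of the reads at the high and 1.22% ± 0.117 at the low temperature (SD, n = 9 each). The share ran between 0.605% (H8) and 0.737% (H3) at the high temperature, against 1.03% (L5) to 1.4% (L7) at the low temperature. The 10 most abundant members made up 63.0% of the sum at the low temperature, so the sum describes few transcripts. A median over members weights all of them alike. Relative to each member's mean over L1 to L9, the median member stood between 0.485 (H4) and 0.578 (H2) in the high-temperature libraries, against 0.915 (L1) to 1.12 (L6) in the low-temperature libraries.

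By type, this relative level averaged 0.537 ± 0.0362 in hybrids, 0.535 ± 0.0466 in Red River fish and 0.54 ± 0.00616 in Delta Select fish at the high temperature (SD, n = 3 each). At the low temperature it averaged 0.933 ± 0.0178 in hybrids, 1.05 ± 0.0598 in Red River fish and 0.974 ± 0.029 in Delta Select fish (SD, n = 3 each), with 0.941 in L8. On column sums these averages were thus closer between types at the high than at the low temperature. Low-temperature Red River fish, L6 above all, had the highest values. Library scaling moves with this: the TMM factor, which multiplies the column sum, was 1.15 in L6 and between 0.917 and 1.09 in the other libraries. How far that factor accounts for the level in L6 was not tested. Taken member by member with TMM scaling, the types were not closer at the high temperature. The median size of the log2 difference between hybrid and Delta Select fish was 0.21 at the high and 0.14 at the low temperature. It was 0.17 and 0.13 for Red River with Delta Select fish, and 0.19 at each temperature for hybrid with Red River fish.

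**Figure D2:**
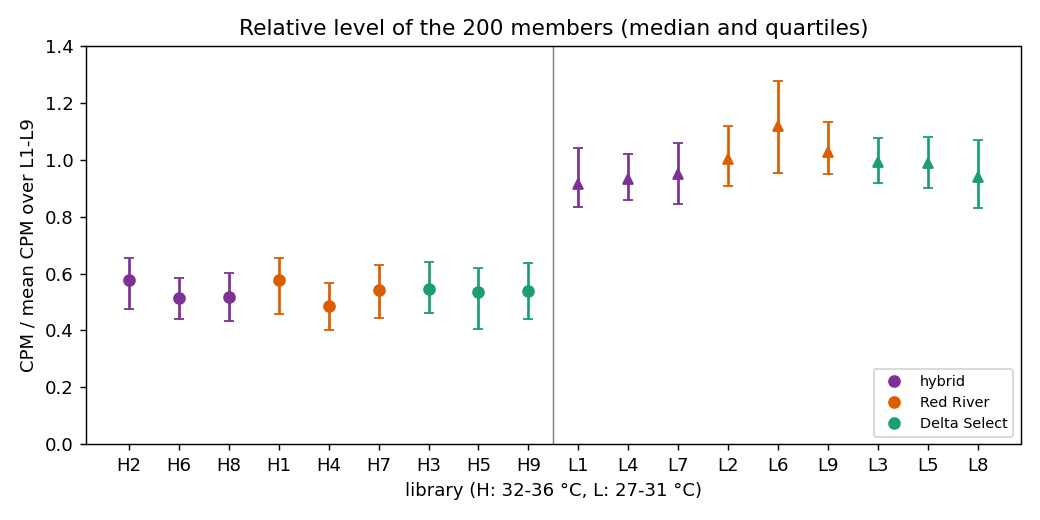
Median level of the 200 members in each library relative to each member's mean over L1 to L9, on column-sum CPM, with bars for the quartiles over members. High-temperature libraries (left) sit between 0.485 and 0.578 in all 3 types, and low-temperature libraries (right) between 0.915 and 1.12.

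The margin between the temperatures was narrow for most members. The lowest low-temperature level was a median of 1.13 times the highest high-temperature level, with quartiles of 1.06 and 1.22 and a maximum of 2.00. It lay less than 5% above for 41 members and was above 1.5 times for 10. The lower edge of the low regime was set most often by L8 (45 members), L1 (36) and L7 (35), and least often by L6 (7) and L9 (6). The upper edge of the high regime was set most often by H2 (37 members) and H1 (36), and least often by H4 (2). With any single library left out, between 324 and 397 transcripts passed the rule, where fewer libraries make the separation easier to meet. The median coefficient of variation of members was 16.6% across the high-temperature and 15.2% across the low-temperature libraries, against 20.9% and 21.7% for the 34137 transcripts of at least 2 CPM, a difference that a rule asking for separated groups favours.

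Every member averaged lower at the high temperature in every type, as the rule requires, and on column sums the extent was largest in Red River fish. On column-sum CPM the median ratio of the low to the high mean was 1.74 in hybrids (quartiles 1.55 and 2.02), 2.04 in Red River fish (1.69 and 2.42) and 1.81 in Delta Select fish (1.58 and 2.18). It was above 2 for 51 members in hybrids, 103 in Red River fish and 72 in Delta Select fish. The fall was largest in hybrids for 47 members, in Red River fish for 102 and in Delta Select fish for 51. With L8 alone as the low-temperature Delta Select library, these counts were 46, 111 and 43, the median ratio in Delta Select fish was 1.79 (quartiles 1.52 and 2.14), and it was above 2 for 67 members.

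The larger fall in Red River fish depended on the scaling. The median log2 change was -0.80 in hybrids, -1.03 in Red River fish and -0.86 in Delta Select fish on column sums, against -0.92, -0.96 and -0.96 with TMM scaling and -0.93, -0.97 and -0.98 with DESeq2 size factors. Transcripts of at least 2 CPM moved alike under these scalings, with median log2 changes (0.5 CPM added) of 0.05 in hybrids, -0.07 in Red River fish and 0.06 in Delta Select fish on column sums, and of -0.06, -0.01 and -0.04 with TMM scaling. In Delta Select fish the median log2 change on column sums was -0.84 against L8 alone, beside -0.86 with L3 and L5 included. That every member falls against L8 is fixed by the rule, which sets a lower bound, but no upper one, to the size of the fall. Across members, Spearman correlations of the log2 changes were 0.361 for hybrid with Red River, 0.439 for hybrid with Delta Select and 0.553 for Red River with Delta Select fish, over 200 transcripts that share their libraries. Against L8 alone they were 0.45 for hybrid with Delta Select and 0.428 for Red River with Delta Select fish.

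**Figure D3:**
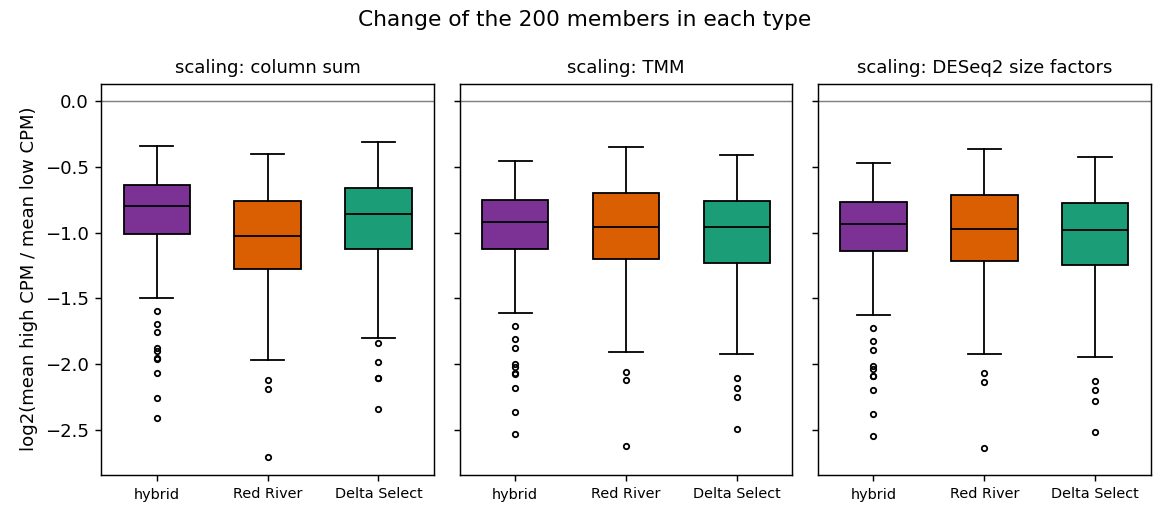
Change of the 200 members in each type under 3 scalings, as log2 of the mean high-temperature over the mean low-temperature CPM (box, quartiles and median; whiskers, to the farthest member within 1.5 box lengths; circles, members beyond). Medians are -0.80 in hybrid, -1.03 in Red River fish and -0.86 in Delta Select fish on column sums, and between -0.92 and -0.98 under the other scalings.

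Whether the change with temperature differed between types was tested for every transcript with edgeR's quasi-likelihood test, adjusted by Benjamini and Hochberg over all 96799 transcripts tested. In the joint test of type by temperature edgeR called 0 of 200 members at an adjusted p under 0.05, beside 0% of all transcripts. At an unadjusted p under 0.05 there were 21 members (10.5%), against 11.3% of all transcripts. In the same joint test DESeq2 called 2 members (1%, beside 1.26% of all transcripts) and limma-voom 0 (beside 0%). The 3 pairwise tests also called 0 members, beside 0% of all transcripts in each. Their counts at an unadjusted p under 0.05 were 26 members (13%, against 5.80% of all transcripts) for hybrid with Red River, 17 (8.5%, against 10.7%) for hybrid with Delta Select and 13 (6.5%, against 11.6%) for Red River with Delta Select fish. DESeq2 called 1 member for hybrid with Delta Select (0.5%, beside 1.0% of all transcripts). It called 0 for hybrid with Red River (beside 0.063%) and 0 for Red River with Delta Select fish (beside 0.873%). The calls of limma-voom were 0 for all 3 pairs, beside 0% of all transcripts in each. The rule makes every type fall, so types cannot differ in direction, but it sets no upper limit on how far the sizes of their falls differ. The change with temperature averaged over types chose the members and gives no test of them, and over all transcripts edgeR called 9.75% lower in it.

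The change of k82:875412 varied most between types. In hybrids it had 13.5, 11.9 and 9.58 CPM at the high temperature, against 45.9, 74.9 and 65.5 CPM at the low temperature. Its Red River levels were 10.2, 11.5 and 14.5 CPM at the high temperature, against 25.5, 31.8 and 23.3 CPM at the low temperature. In Delta Select fish it had 19.4, 15.8 and 19.3 CPM at the high temperature, against 48.6 (L3), 21.3 (L5) and 29.0 CPM (L8) at the low temperature. Hybrids overlapped Red River fish at the high temperature and lay above all of them at the low temperature, where L3 alone among the Delta Select libraries reached the hybrid range. The ratio of low to high was 5.33 in hybrids, 2.23 in Red River fish and 1.81 in Delta Select fish (1.59 against L8 alone). This member also had the smallest p of all members in the joint test (unadjusted p = 0.000348, edgeR adjusted p = 0.182). Its adjusted p ran between 0.0064 and 0.384 over the settings tried, and it was called in DESeq2 (adjusted p = 0.0064), in edgeR without L8 (adjusted p = 0.0292) and in edgeR without L3 and L5 (adjusted p = 0.0444).

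**Figure D4:**
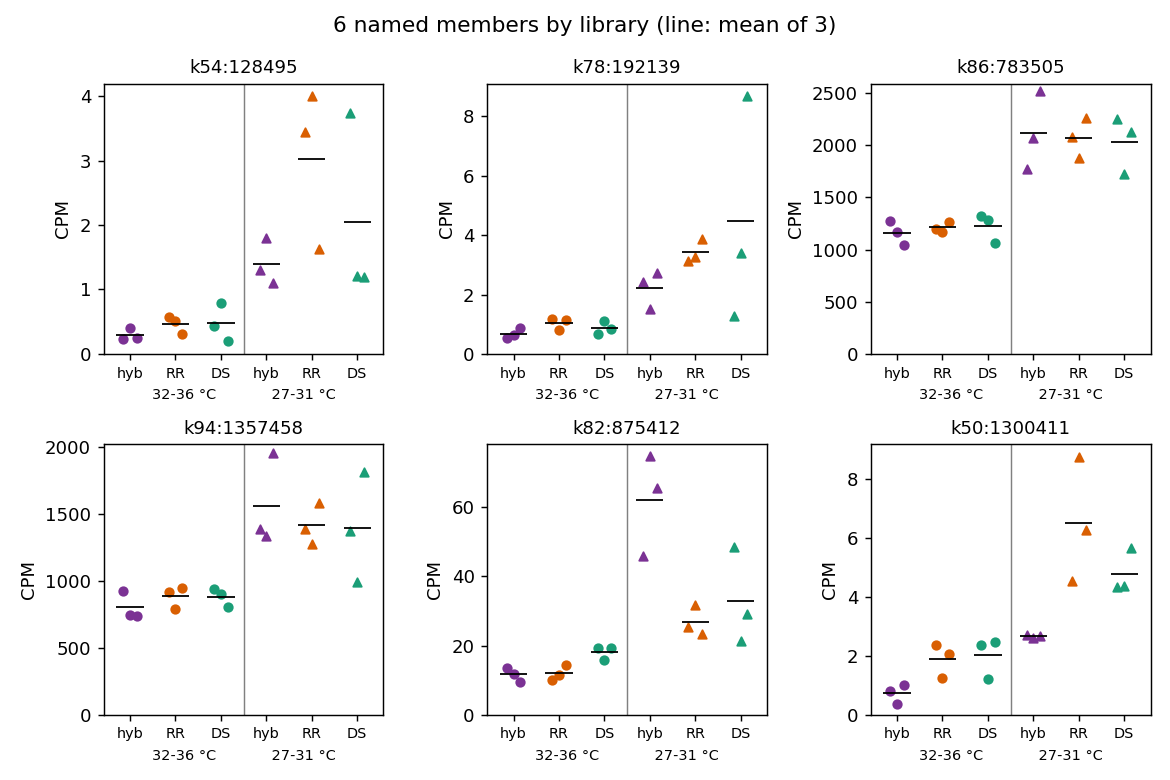
CPM of 6 named members in every library, with high-temperature libraries (circles, left) and low-temperature libraries (triangles, right) by type (hyb, hybrid; RR, Red River; DS, Delta Select) and lines at the mean of 3. The transcript k82:875412 reaches 45.9 to 74.9 CPM in low-temperature hybrids, and the hybrid points of k50:1300411 lie below those of both strains at each temperature.

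Differences between types within a temperature did not rank the members, but the rule limits some of them. A type difference alike at both temperatures and wider than the fall keeps a transcript out. A difference at 1 temperature can still be wide, as the low-temperature levels of k82:875412 show. With edgeR, 52 of the 200 (26%) were called in at least 1 of the 6 type contrasts and 148 in none, beside 44.9% of all transcripts called in at least 1. In hybrid minus Red River fish, 12 members were higher and 11 lower at the high temperature (6% and 5.5%), beside 17.7% and 13.2% of all transcripts. At the low temperature 13 were higher and 12 lower (6.5% and 6%), beside 17% and 11.9% of all transcripts. At both temperatures 5 members were higher and 2 were lower (2.5% and 1%), beside 12.8% and 7.34% of all transcripts, and 0 were called in opposite directions, beside 0.0186%. The median size of the log2 difference was 0.19 for members at each temperature, against 0.50 at the high and 0.49 at the low temperature for all transcripts tested. For transcripts of at least 2 CPM, a level that all members reach, it was 0.38 at each temperature. Without a filter on low counts, which changes the scaling, the calls at the high temperature were 6 higher and 16 lower. Together these were 11% of members, beside 22.7% of the 136462 transcripts tested without the filter.

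In hybrid minus Delta Select fish at the high temperature, 19 members were higher and 5 lower (9.5% and 2.5%), beside 17% and 12.5% of all transcripts. Without a filter on low counts the calls were 14 higher and 7 lower, 10.5% of members beside 21.8% of all transcripts tested. At the low temperature edgeR called 1 member higher and 0 lower, beside 2.71% and 1.72% of all transcripts. In edgeR 19 members (9.5%) had an unadjusted p under 0.05, against 22.3% of all transcripts. DESeq2 and limma-voom made 1 call each (0.5%, beside 7.01% and 5.98% of all transcripts). Without L3 and L5, where L8 alone stands for its group and its spread is assumed equal to that of the rest, 11 members (5.5%, 4 higher and 7 lower) were called at the low temperature, beside 15% of all transcripts. In Red River minus Delta Select fish at the high temperature edgeR called 0 members higher and 0 lower, beside 0.13% and 0.152% of all transcripts. In edgeR 22 members (11%) had an unadjusted p under 0.05, against 8.94% of all transcripts. The median size of the log2 difference was 0.17 for members, against 0.22 for all transcripts tested and 0.15 for transcripts of at least 2 CPM. In the other type contrasts the members' value was below both. DESeq2 called 1 (0.5%, beside 0.848% of all transcripts) and limma-voom 0 (beside 0.207%). At the low temperature 1 was higher and 1 lower, beside 1.24% and 3.1% of all transcripts, and 2 were called without L3 and L5 (beside 0.307% of all transcripts), not all of them the same. Both low-temperature contrasts with Delta Select fish therefore hold few calls, and their counts move with single libraries, as do the shares of all transcripts. For hybrids 0 members were called without L4, L5, L7 or L8, beside 0.635% (L8) to 1.79% (L4) of all transcripts. Without L3 there were 8, beside 13.9%. For Red River fish 0 were called without L2, L6 or L9, beside 0.441% (L6) to 0.963% (L2) of all transcripts. Without L8 there were 4, beside 10.04%.

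**Figure D5:**
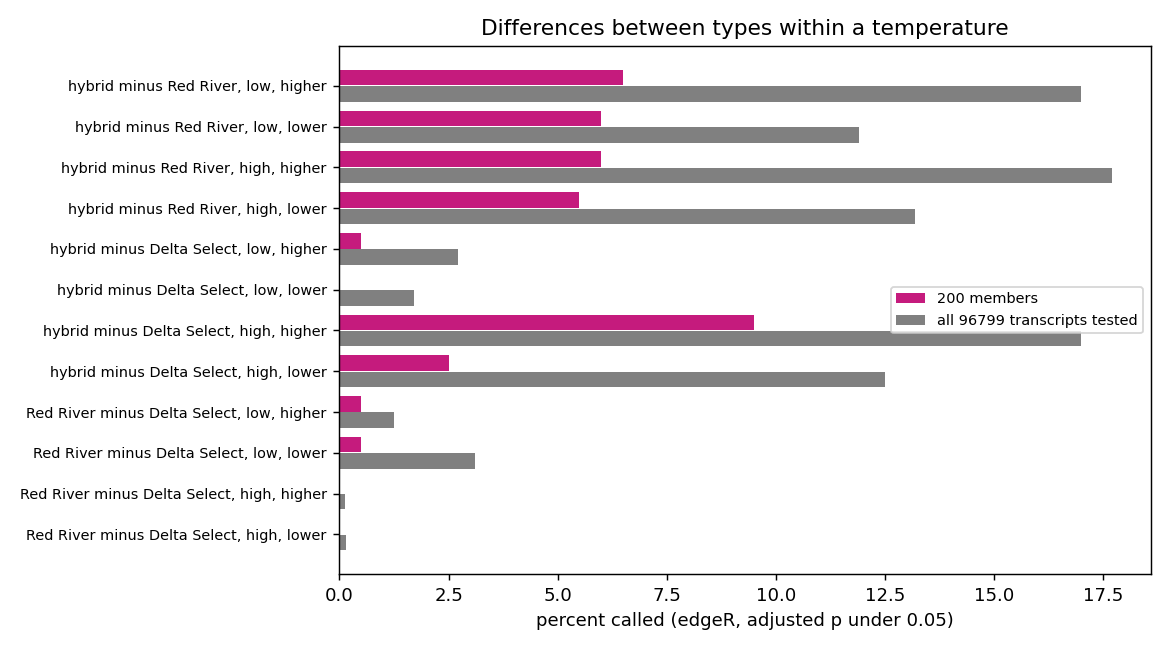
Percent of the 200 members (coloured bars) and of all 96799 transcripts tested (grey bars) that edgeR called higher or lower in each type contrast within a temperature. The share of members is below the share of all transcripts in each of the contrasts shown, with no test of the shares, and it is largest, 9.5%, for members higher in hybrid than in Delta Select fish at the high temperature.

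The transcript k50:1300411 was lower in hybrid than in Red River fish at both temperatures. At the high temperature it had 0.806, 0.375 and 0.991 CPM in hybrids, against 2.36, 1.26 and 2.05 CPM in Red River fish and 2.35, 1.20 and 2.48 CPM in Delta Select fish. In the low regime it had 2.71, 2.60 and 2.66 CPM in hybrids, against 4.53, 8.76 and 6.27 CPM in Red River fish and 4.33, 4.39 and 5.66 CPM in Delta Select fish. No hybrid library reached any library of either strain within a temperature. The log2 difference of hybrid minus Red River was -1.37 ± 0.32 (SE) at the high temperature (edgeR adjusted p = 0.00381) and -1.11 ± 0.29 at the low temperature (edgeR adjusted p = 0.00778). That of hybrid minus Delta Select at the high temperature was -1.38 ± 0.32 (edgeR adjusted p = 0.00353). These 3 calls held in every setting tried. Hybrid minus Delta Select at the low temperature, which includes L3 and L5, was -0.77 ± 0.29 and missed the threshold (edgeR adjusted p = 0.123).

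In the other direction, k82:875412, whose levels are given above, was higher in hybrid than in Red River fish at the low temperature, by 1.38 ± 0.25 (SE) on the log2 scale (edgeR adjusted p = 0.000528), a call that held in every setting tried. Against Delta Select fish at the low temperature the difference was 1.01 ± 0.24 (edgeR adjusted p = 0.0293). That call was lost in 5 settings, which were the fits without L4 (adjusted p = 0.0970), L5 (0.103), L7 (0.0880) or L8 (0.129) and the fit of the compared groups alone (0.218), and it held without L3 and L5 (0.0134).

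Other members led at the high temperature. The transcript k70:1030374 had 3.46, 2.23 and 3.36 CPM in hybrids, against 1.26, 1.34 and 1.76 CPM in Delta Select fish. The groups did not overlap, and the log2 difference of 1.13 ± 0.23 (SE, edgeR adjusted p = 0.00139) was called in every setting tried. The transcript k50:2842398 had 2.23, 2.30 and 1.88 CPM in hybrids, against 1.33, 0.75 and 1.37 CPM in Red River fish. These groups did not overlap either, but the log2 difference of 0.89 ± 0.27 (SE, edgeR adjusted p = 0.0176) was no longer called without H4 (adjusted p = 0.0987) or without H6 (adjusted p = 0.0728).

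Between the strains of channel catfish the differences were small. In the low regime k70:1638990 had 8.47, 10.5 and 10.7 CPM in Red River fish, against 8.03 (L3), 6.05 (L5) and 5.84 CPM (L8) in Delta Select fish, a log2 difference of 0.50 ± 0.14 (SE, edgeR adjusted p = 0.0442). The gap between L2 and L3 was small, and the call was lost in 18 settings, among them the fit without L3 and L5 (adjusted p = 0.243). The transcript k86:197949 had 3.89, 4.15 and 4.40 CPM in Red River fish, against 6.62 (L3), 5.38 (L5) and 7.44 CPM (L8) in Delta Select fish, a log2 difference of -0.72 ± 0.18 (SE, edgeR adjusted p = 0.028). Its groups stood further apart, and the call was lost in 8 settings, among them the fits without L3 (adjusted p = 0.0919) and without L8 (adjusted p = 0.0524), but not in that without L3 and L5 (adjusted p = 0.0451). At the high temperature the smallest p belonged to k62:2062309, with 6.65, 6.17 and 7.24 CPM in Red River fish, against 10.5, 9.17 and 11.6 CPM in Delta Select fish. The groups did not overlap, and the log2 difference of -0.54 ± 0.13 (SE) missed the threshold in edgeR (adjusted p = 0.0974) and passed it in DESeq2 (adjusted p = 0.0121).

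The members that differed between hybrid and Red River fish also place the low-temperature Delta Select libraries relative to both. On a scale of 0 for the Red River mean and 1 for the hybrid mean at the low temperature, the 25 members called in that contrast had a median position of 0.749 (quartiles 0.525 and 0.976) for L3, of 0.694 (0.295 and 0.858) for L5 and of 0.325 (0.029 and 0.628) for L8. L3 and L5 were thus nearer to the hybrids and L8 nearer to Red River fish, with quartiles that overlap. The libraries at both ends of this scale also chose the 25 members, which favours positions between the ends for other libraries. On the scale of the high-temperature means, the same members had median positions of -0.060 in H3, -0.12 in H5 and -0.032 in H9, with wide quartiles (the widest in H9, at -2.04 and 0.952). Of the 25, only 5 higher and 2 lower in hybrids were called in the same direction at the high temperature. For the rest the ends of this scale may lie close together or be reversed, so it places H3, H5 and H9 poorly.

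Members did not move as 1 block once group means were removed. The deviation of log2(CPM + 0.5) from the mean of its group was taken for each library, and the mean correlation of deviations over the 19900 pairs of members was 0.0876, against 0.0476 for transcripts of at least 2 CPM. With TMM scaling these were 0.0629 and 0.00684. They describe 18 libraries, whose depth and composition all pairs share. Of the pairs of members, 38.7% had a correlation below 0, and the leading component held 19.7% of the members' variance, against 19.8% for transcripts of at least 2 CPM.

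Some members nevertheless ran closely together. Correlations above 0.9, directly or through a chain of pairs, linked 49 members into 17 groups, a count not made for other transcripts. The largest has 7 members, among them k94:1357458, with ratios of low to high between 1.64 and 1.72 and low-temperature means between 146 and 1455 CPM. It made up 39.7% of the members' summed level at the low temperature.

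The closest pair, k74:1406912 and k70:1649749, had a correlation of 0.993. The transcript k74:1406912 had 34.0, 52.9 and 70.9 CPM (lowest, median and highest) at the high temperature, against 83.3, 95.4 and 117 CPM at the low temperature. The transcript k70:1649749 had 36.4, 53.9 and 75.5 CPM at the high temperature, against 86.2, 96.0 and 124 CPM at the low temperature. For both, H5 was the lowest and H1 the highest library of the high regime, and L8 the lowest and L6 the highest of the low regime. Whether such identifiers are pieces of the same gene was not determined, so the 200 members may stand for fewer genes. The k-mer sizes in the identifiers were 82 or more for 49.5% of members and 46.2% of transcripts of at least 2 CPM, against 24.6% of the whole table.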

How the data were processed

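Per the labels' protocols, liver RNA of 18 tank pools went into TruSeq libraries and single reads of 50 bases. The deposited table used here holds the authors' raw counts of reads per assembled transcript and library. The submitters' processing notes name Bowtie2 2.1.0, DESeq 1.12.1 and R 3.1.0 without saying what each did. Neither the assembler nor how reads shared by similar transcripts were counted, nor whether strand was used, is given in these sources, so counts of single identifiers are uncertain where transcripts are alike. Between 24.2% and 25.6% of a library's reads stood in a row with no transcript name, which was left out. A deposited normalized table of the same libraries was not used.

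CPM is the count over the column sum. Type contrasts and interactions were tested with edgeR 4.0.16 (quasi-likelihood, robust, TMM scaling, R 4.3.3) in a single fit of the 18 libraries with 1 mean per group. The filter filterByExpr (minimum count 10, minimum total 15) kept 96799 transcripts, all 200 members among them. P-values were adjusted by Benjamini and Hochberg over these, and a call is an adjusted p under 0.05. Standard errors were taken from the F statistic. DESeq2 1.42.0, limma-voom (limma 3.58.1), other scalings, filters and left-out libraries were alternatives. No 2 libraries of a group agreed within sampling noise (chi-square per degree of freedom 9.58 to 46.2). P-values measure the spread between tank pools.

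The members, lists and rules for naming transcripts were chosen with earlier results of these data known. Named are the 2 members of highest rank, the 2 of highest low-temperature CPM, ranks 200 and 201, the called member with the largest difference in each direction of each type contrast (or that of the smallest p), those with the smallest joint interaction p and the widest range of change over types, and the most correlated pair. Markers of liver cell types were not applied, because identifiers carry no gene names.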

Additional observations from a re-analysis of the deposited data

Results flagged for a closer look

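In k78:192139 the low-temperature library L8 (Delta Select) stood at 8.70 CPM, far above the other 8 low-temperature libraries, of which the next was L9 at 3.88 CPM. The gap between L8 and L9 was 0.65 of the whole range of the 9 libraries, above the critical value of 0.493. Of 34 groups of 9 libraries examined, this was the only 1 past its critical value, and chance passes about 1 in 20. Without L8 the means were 0.867 CPM at the high and 2.70 CPM at the low temperature, a ratio of 3.12 in place of 3.88. The cause of the value in L8 was not tested.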

How the results depend on the processing

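The choice of members depends on the scaling: 511 transcripts passed the rule with DESeq2 size factors and 453 with TMM, in place of 316. Of the 200 members, 193 and 189 still passed, and 150 and 156 stayed among the first 200. When the column sum included the row with no transcript name, 273 transcripts passed, with 174 of the members among them. With 1 library left out 324 to 397 transcripts passed, but fewer libraries make the separation easier to meet. Of the members, 164 to 193 then stayed among the first 200. Under the other settings of the rule 145 to 199 stayed, the 145 with a minimum mean of 5 CPM, which removes the members below it. The median log2 change was -0.96 (TMM) and -0.98 (DESeq2 size factors) in Delta Select and -0.92 and -0.93 in hybrid fish. With 1 library left out it ran between -0.90 and -0.83 in Delta Select, -0.86 and -0.77 in hybrid and -1.09 and -0.93 in Red River fish.

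Shares of all transcripts called also changed between the fits, and are given beside the counts. Members called in hybrid minus Red River at the high temperature, with 1 library left out, were 14 to 28, in place of 23 (beside 30.9%). They were 14 without H6 or without H8 (beside 24.9% and 24.8%) and 28 without L8 (beside 32.9%). At the low temperature they were 16 to 30, in place of 25 (beside 28.9%). They were 16 without L6 (beside 20.9%) and 30 without H9 (beside 28.8%). For hybrid minus Delta Select they were 9 to 27 at the high temperature, in place of 24 (beside 29.5%). They were 9 without H2 or without H5 (beside 23.2% and 23.0%), 10 without H6 (beside 23.5%) and 27 without L3 (beside 31.1%). At the low temperature they were 0 to 8 (0 without L4, L5, L7 or L8, 2 without H4 and 8 without L3, in place of 1), with 0 in the fit of the compared groups alone and 11 without L3 and L5. Beside these counts, 4.43% of all transcripts were called in the main fit, 3.42% without H4 and 13.9% without L3. Where 1 library was left out and 0 members were called, the share ran between 0.635% (L8) and 1.79% (L4). It was 0.110% in the fit of the compared groups alone, and the share without L3 and L5 is given above. For Red River minus Delta Select at the low temperature the members called were 0 to 4, in place of 2 (beside 4.34%). They were 0 without L2, L6 or L9 (beside 0.441% to 0.963%) and 4 without L8 (beside 10.04%). They were 1 without H2, H4, H5, H6, H7, L1, L3, L4, L5 or L7 (beside 0.571% to 3.59%). They were 1 without a filter (beside 2.52%) and 5 in DESeq2 (beside 6.77%). They were 0 in limma-voom (beside 1.36%) and 0 in the compared groups alone (beside 0.244%). At the high temperature DESeq2 called 1 (beside 0.848%) in place of 0 (beside 0.282%). In the interactions DESeq2 called 2 members jointly (beside 1.26%) and 1 for hybrid with Delta Select (beside 1.0%), in place of 0 (beside 0%). Leaving out 1 library gave 0 to 2 jointly and 0 to 1 for hybrid with Delta Select. The highest counts were those without L8 (beside 3.46% jointly and 3.87% for hybrid with Delta Select).

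Library numbers run across types within a regime, and libraries that share a number had correlations of deviations between -0.190 and 0.113. These were not set against libraries of different numbers, so whether the numbers pair tanks was not determined. The number was also taken as a replicate block, where the contrast could be estimated. With it 9 members (4.5%) were called in hybrid minus Delta Select at the high temperature, beside 18.7% of all transcripts. In Red River minus Delta Select at the low temperature 0 members were called, beside 0.166% of all transcripts. No direction of a named member reversed under the alternatives run. Depth limits the rare members most, the lowest value being 9 reads in a library. With 3 tanks a group, a count of 0 calls does not show that types responded alike.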
